A study of Caenorhabditis elegans with 2 samples.

Results

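Distal intergenic peaks are the places far from any protein-coding gene start at which tagged HMG-1.2 was recovered from the Caenorhabditis elegans genome. A peak was counted as distal when its summit, the point of highest signal that the authors give, met 3 conditions. It lay inside no protein-coding gene, it was over 2000 bp from every annotated protein-coding 5′ end, and it was not between a left neighbour on the plus strand and a right neighbour on the minus strand. In the authors' thresholded list over both replicates 728 of 6058 peaks (12.02%) were distal. The other 5330 peaks had summits within 500 bp of a 5′ end (1789), at 500 to 2000 bp (1008), between convergent genes (242) or inside a protein-coding gene (2291). The rule used positions only, so signal, sequence and overlap between replicates were not used to choose the peaks.

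HMG-1.2 carries HMG boxes, domains that bind and bend DNA with little preference for sequence, and it has been tied genetically to Wnt signalling in the worm. The C. elegans genome is compact, and most regulatory DNA lies close to gene starts. The stretches beyond can still hold enhancers, repeats and genes for non-coding RNA, among them tRNA genes, whose promoter elements lie inside the transcribed sequence.

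Chromatin immunoprecipitation followed by sequencing was done on whole young adults, 65 h old, of strain RW12210, in which CRISPR placed TY1, EGFP and 3xFLAG tags in the native hmg-1.2 locus. All animals carried the tag and had been hatched from bleached eggs and starved as L1 larvae, and they form 1 group of 2 samples, biological replicates 1 and 2. The labels do not say whether these came from separate cultures, and control libraries were not analysed here. The description names an antibody against GFP while the antibody field names hmg-1.2, and the sonicated fragments have a listed size range of 200 to 800. Tissues cannot be told apart in whole animals.

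The summit windows below are reference sequence, from 100 bp before to 100 bp after a summit, on the WBcel235 (ce11) build as held by RefSeq. They are shown because later results turn on 3 kinds of distal peak. These are peaks with neither feature that follows, those with the run GAGAGAGA on either strand, and those beside a tRNA gene. The first set has the 3 highest-signal distal peaks without GAGAGAGA and with no non-coding RNA gene within 200 bp. Shorter runs of alternating G and A do not count, and the longest in these 3 windows had 6, 5 and 7 bases. They ranked 4, 15 and 17 of 6058 by signal.
K08F11.1 to fbxb-78, chrIV:4727932-4728132, plus strand: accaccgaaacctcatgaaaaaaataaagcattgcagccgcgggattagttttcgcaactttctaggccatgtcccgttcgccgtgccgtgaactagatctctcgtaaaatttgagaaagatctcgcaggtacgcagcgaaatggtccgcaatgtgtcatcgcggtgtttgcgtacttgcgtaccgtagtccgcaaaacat
K07D4.2 to gadr-4, chrII:4047960-4048160, plus strand: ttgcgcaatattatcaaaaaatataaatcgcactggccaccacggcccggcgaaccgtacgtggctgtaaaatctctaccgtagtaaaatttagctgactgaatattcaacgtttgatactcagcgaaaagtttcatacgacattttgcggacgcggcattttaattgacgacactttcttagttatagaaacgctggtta
Y105C5A.1 to pqn-76, chrIV:15570832-15571032, plus strand: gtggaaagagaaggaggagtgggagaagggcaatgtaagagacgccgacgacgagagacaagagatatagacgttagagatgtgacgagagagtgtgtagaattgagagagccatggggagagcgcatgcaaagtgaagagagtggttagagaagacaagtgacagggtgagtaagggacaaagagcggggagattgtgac

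The windows of the second set hold a run of at least 8 alternating G and A, capitals marking the longest run. They are the 4 highest-signal windows of this kind that overlapped a peak of both replicates, at ranks 35, 73, 82 and 166.
srw-60 to nhr-88, chrII:2973988-2974188, plus strand: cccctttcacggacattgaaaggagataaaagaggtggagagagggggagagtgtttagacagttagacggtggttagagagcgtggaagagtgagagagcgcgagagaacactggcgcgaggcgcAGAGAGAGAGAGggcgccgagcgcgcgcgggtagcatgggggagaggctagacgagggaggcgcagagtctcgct
Y17D7C.2 to asp-19, chrV:18723707-18723907, plus strand: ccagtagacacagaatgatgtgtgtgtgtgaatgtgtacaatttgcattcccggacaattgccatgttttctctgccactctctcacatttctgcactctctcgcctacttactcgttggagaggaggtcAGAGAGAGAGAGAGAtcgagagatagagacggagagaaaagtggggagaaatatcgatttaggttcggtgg
aakg-1 to gldi-8, chrIII:12583570-12583770, plus strand: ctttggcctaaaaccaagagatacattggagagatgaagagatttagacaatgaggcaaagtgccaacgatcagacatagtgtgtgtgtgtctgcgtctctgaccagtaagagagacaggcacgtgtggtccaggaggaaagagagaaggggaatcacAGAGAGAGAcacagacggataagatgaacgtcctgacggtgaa
W01H2.2 to rab-37, chrX:4222889-4223089, plus strand: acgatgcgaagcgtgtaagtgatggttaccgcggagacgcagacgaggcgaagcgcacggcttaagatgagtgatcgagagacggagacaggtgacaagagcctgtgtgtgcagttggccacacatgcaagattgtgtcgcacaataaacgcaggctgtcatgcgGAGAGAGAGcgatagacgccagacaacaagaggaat

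The third set has the highest-signal distal windows that hold a B box of a nearby tRNA gene. The B box is the internal element that the polymerase III factor TFIIIC binds, and capitals mark matches to GTTCNANNC on either strand. The windows are printed on the strand of their tRNA gene, which RefSeq lists as threonine tRNA for R01H5.t1, valine tRNA for F59C12.t3 and proline tRNA for ZK899.t1. Their peaks ranked 734, 1007 and 1008 by signal.
R01H5.t1, chrX:12563672-12563872, plus strand: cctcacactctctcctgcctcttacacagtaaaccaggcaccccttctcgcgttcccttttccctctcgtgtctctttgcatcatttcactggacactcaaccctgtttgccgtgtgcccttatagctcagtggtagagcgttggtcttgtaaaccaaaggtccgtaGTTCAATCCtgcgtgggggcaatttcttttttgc
F59C12.t3, chrX:16590910-16591110, minus strand: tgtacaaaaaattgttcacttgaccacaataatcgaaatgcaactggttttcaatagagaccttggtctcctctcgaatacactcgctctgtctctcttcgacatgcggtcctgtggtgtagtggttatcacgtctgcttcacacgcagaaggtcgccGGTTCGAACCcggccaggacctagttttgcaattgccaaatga
ZK899.t1, chrX:9467725-9467925, minus strand: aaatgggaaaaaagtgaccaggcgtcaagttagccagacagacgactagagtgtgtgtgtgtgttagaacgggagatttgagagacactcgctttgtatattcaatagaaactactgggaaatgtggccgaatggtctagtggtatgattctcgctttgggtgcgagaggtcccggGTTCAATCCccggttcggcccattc

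Distal peaks were about as dense where they could occur as peaks were in the genome overall. The bases at which a summit would meet the rule, called the reachable genome here, came to 13.7 Mb, or 13.6% of the nuclear genome. They held 53.2 distal peaks per Mb, against 60.4 peaks of any kind per Mb of the nuclear genome. The share of peaks that were distal was 11.9% in the list of replicate 1 (399 of 3340) and 12.5% in that of replicate 2 (665 of 5333), or 12.2% ± 0.370 (SD, n = 2). The authors' conservative list gave 12.2% (506 of 4149). The replicates' lists therefore differed in length while the distal share was almost the same.

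Candidate peaks from the authors' ranked list over both replicates show how many distal positions were kept by their threshold. Of 5334 distal candidates 13.6% (728) were kept, against 10.1% of 52654 other candidates and 10.4 percent of all 57988. Distal positions thus made up 9.20% of the candidates and 12.02% of the peaks. No test was made of this or of the other shares set side by side, because peaks of 1 pooled list are not replicates.

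Chromosome III had the most distal peaks per reachable Mb, and chromosome V the fewest. The pooled list held 85.8 per Mb on III, 73.2 on I, 56.7 on II, 48.6 on IV, 45.2 on X and 33.9 on V. In the list of replicate 1 the highest and lowest values were 48.9 on III and 15.5 on V, and in that of replicate 2 they were 83.3 on III and 27.1 on V. Peaks of all kinds ran from 86.7 per Mb on III to 44.3 on V, the same extremes. The X chromosome held 153 distal peaks, 21.0% of the total, while it held 24.8% of the reachable genome. Without the peaks beside tRNA genes its share was 16.2%. The ends of the chromosomes, the third of the length at each side, held 70.6% of distal summits (514 of 728), against 63.5% of other summits and 69.3% of the reachable bases.

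**Figure D1:**
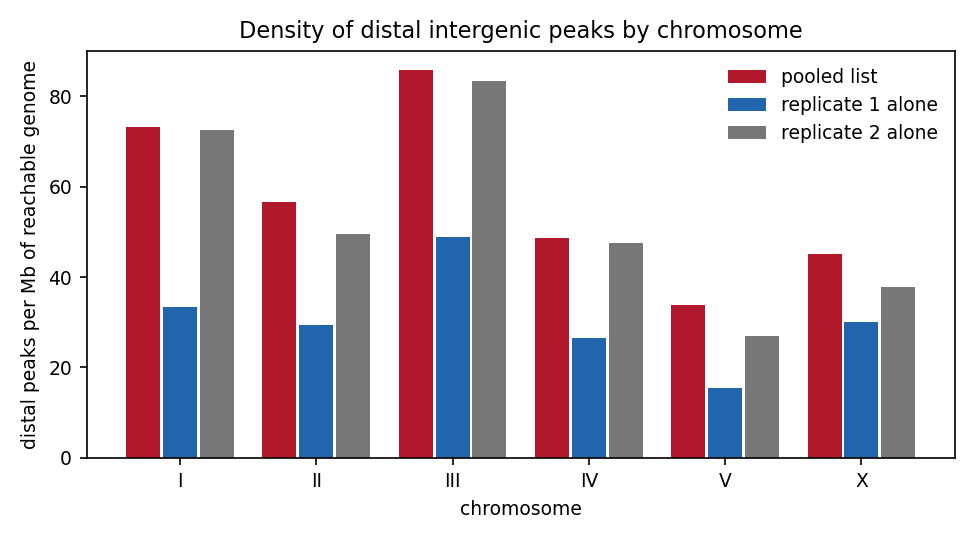
Distal intergenic peaks per Mb of reachable genome (vertical axis) on each chromosome, as bars for the pooled list, the list of replicate 1 and the list of replicate 2. Chromosome III has the tallest bar and V the shortest in each list, 85.8 and 33.9 per Mb in the pooled one.

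Density fell with distance from gene starts, even among positions that were all beyond 2000 bp. The median summit was 3399.5 bp from the nearest protein-coding 5′ end, with quartiles of 2595.5 and 4764.5 bp and a range of 2004 to 18847 bp. There were 63.7 peaks per reachable Mb at 2000 to 3000 bp (289 peaks), 57.8 at 3000 to 4000 bp (174), 46.1 at 4000 to 6000 bp (152), 41.1 at 6000 to 10000 bp (87) and 38.2 beyond 10000 bp (26). Each step was also downward in the list of replicate 1, with 31.5 per Mb in the nearest bin and 25 in the farthest, and in that of replicate 2, with 56.8 and 32.4 per Mb. The peaks themselves did not weaken in step. The median signal percentile within the pooled list was 48.7 at 2000 to 3000 bp, 60.3 at 4000 to 6000 bp and 54.7 beyond 10000 bp.

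Peaks just on either side of the limit were unlike one another. Just inside were a peak at 2004 bp from sdc-1, which encodes a protein of X chromosome dosage compensation (signal 126, beside a tRNA gene), one at 2008 bp from cox-5B, a subunit of cytochrome oxidase (signal 264), and one at 2012 bp from F35G2.1 (signal 70.7). Just outside were peaks at 1996 bp from nhr-119, a nuclear receptor gene (signal 164), at 1992 bp from M02B1.3 (signal 261) and at 1987 bp from cec-2, a chromodomain gene (signal 1682).

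The flanking genes pointed the same way, in tandem, at 493 distal peaks (67.7%), while tandem gaps held 64.1% of the reachable bases. At 234 peaks (32.1%) the neighbours pointed away from each other, against 35.5% of the bases. Among the 494 peaks with a flanking 3′ end, 68 (13.8%) were within 500 bp of it, while 8.13% of the reachable bases in tandem gaps were. Of 3471 reachable gaps between genes, 528 (15.2%) held a distal peak. In 141 gaps there were 2 or more, 341 peaks in all. Another summit lay within 1000 bp of 22.8% of distal peaks (166), against 21.9% of other peaks.

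Of 3471 gaps, 2 held 7 distal peaks and 2 held 5. The 14755 bp gap on chromosome II between srw-60, a chemoreceptor-type gene, and nhr-88, a nuclear receptor gene, had 7 peaks between positions 2962127 and 2974088. Their signals ran from 132 to 2865, all 7 overlapped a peak of replicate 2 and 5 also one of replicate 1. The 8447 bp gap on X between F22F1.2 and hil-3, a linker histone gene, also had 7, and all 7 lay beside tRNA genes, with signals from 115.1 to 295. Of these, 5 overlapped a peak of replicate 1 and 6 a peak of replicate 2. The 9300 bp gap on III between F56F11.4 and klf-1, a Krüppel-like factor gene, had 5 peaks with signals from 279 to 587, each found in both replicates and none beside a tRNA gene. The other gap with 5, of 20938 bp on X between got-2.2 and W05H9.4, had signals from 65.1 to 123.3, with 2 of the 5 in both replicates and none beside a tRNA gene.

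Distal peaks were no weaker than the rest. Their median signal was 181 (quartiles 104 and 355) against 162 for other peaks (quartiles 100.4 and 332), on the authors' scale, whose unit is not stated. This placed the median distal peak at percentile 54.2 of the list and the median other peak at 49.5. In the replicates' own lists the median distal peak was at percentile 55.9 in replicate 1 and 49.9 in replicate 2, so that a position above the middle was seen in 1 of the 2. Both kinds had a median width of 330 bp. Of the 300 peaks of highest signal 34 (11.3%) were distal.

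Distal peaks overlapped the peaks of each replicate's own list about as often as peaks in general did. The pooled list was itself made from both replicates, so these overlaps are not independent recovery. A conservative peak overlapped 67.4% of distal peaks (491), against 65.4% of other peaks and 65.7 percent of all. A thresholded peak of replicate 1 overlapped 51.2% of distal peaks (373) and 50.3% of other peaks, and 1 of replicate 2 overlapped 82.0% (597) and 79.8%. Both did so at 45.5% (331), against 43.1% of other peaks and 43.4 percent of all. Neither did at 12.2% (89), against 13.0% of other peaks. Replicate 2 alone overlapped 36.5% of distal peaks (266), against 36.7% of other peaks, and replicate 1 alone 5.77% (42), against 7.15%. For 648 distal peaks a ranked candidate was present in each replicate, and Spearman's rho between their signal ranks was 0.578, given as a description.

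The 20 distal peaks of highest signal that overlapped both replicates ranked from 4 to 186 in the pooled list. The highest was on chromosome IV (4727808 to 4728262), 2886 bp from K08F11.1 and upstream of fbxb-78, an F-box gene. Its signal was 5304.5 in the pooled list, 1510.5 in that of replicate 1 (rank 21 of 39515) and 3816 in that of replicate 2 (rank 2 of 27035). The next, on chromosome II (4047848 to 4048254) between K07D4.2 and gadr-4, had a pooled signal of 3837, with 1696 in replicate 1 and 2139 in replicate 2. The third, on IV (15570721 to 15571141) between Y105C5A.1 and pqn-76, a gene for a protein rich in glutamine and asparagine, had 3658, with 1810.1 in replicate 1 and 1868 in replicate 2. All 3 were thus near the top of both replicates' ranked lists. The window of the first holds another copy elsewhere in the genome, as does that of the second, while that of the third does not.

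Another 4 of the 20, picked for description after their values were seen, follow. The peak between sri-5, a chemoreceptor-type gene, and ztf-6, a zinc finger gene, had a pooled signal of 2715, with 680 in replicate 1 and 2044 in replicate 2. One between hmt-1, a heavy metal transporter gene, and sup-35 had 2278, with 735 in replicate 1 and 1549 in replicate 2. A peak between emg-1 and cnt-2 had 2245, with 231 in replicate 1 and 2018 in replicate 2, and one between sptf-3, an Sp1 family factor gene, and C01A2.9 had 1753, with 238 in replicate 1 and 1510.5 in replicate 2. The last 2 held ranks 564 and 548 of 39515 in replicate 1, and ranks 26 and 65 of 27035 in replicate 2. Of the 20, 4 had a GA run, against 16.2% of all distal peaks. Beside a tRNA gene lay 0, against 10.9%, and beside any non-coding RNA gene lay 2, against 27.6%. Pseudogenes are not in that count. The peaks ranked 4 and 73 had summits 69 and 36 bp from one, and the summit between hmt-1 and sup-35 lay inside one. Their GC content ran from 34.8% to 60.2%.

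The 5 most distant peaks, from 14408 to 18847 bp from a 5′ end, had signals from 71.1 to 468. The farthest was on chromosome IV to the right of Y105C5A.15, with a signal of 214 and an overlap in both replicates. Next, at 16239 bp on chromosome I between Y23H5B.5 and dmsr-2, a peptide receptor gene, was a peak of signal 468 that also overlapped both. The other 3 were on X, and of these 1 overlapped both replicates, 1 overlapped replicate 1 alone and 1 overlapped neither.

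Distal summits were much richer in GC than the sequence around them. The median GC content of the 201 bp windows was 45.3% (quartiles 40.8% and 49.3%), against 43.8% for other peaks (quartiles 38.8% and 48.8%) and 33.3% for 63118 windows of the reachable genome outside peaks (quartiles 28.9% and 38.8%). The replicates' own lists gave 45.5% ± 0.352 (SD, n = 2). Only 7.14% of distal windows (52) were under 35% GC. Repeat-masked bases made up 24.7% of distal windows on average, against 25.4% of the windows of other peaks and 41.0% of the reachable windows.

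The rise in GC was narrow. In 25 bp bins the mean was 51.5% at the summit beside tRNA genes, 47.3% at GA windows and 49.1% at the remaining distal peaks, against 49.3% at other peaks and 33.99% in reachable windows. At an offset of -500 bp these means were 38.5%, 33.5% and 35.1% for the 3 kinds of distal peak. Other peaks had 36.6% there and reachable windows 34.2%. Summits have no strand, so a negative offset does not mean upstream of a gene. At 500 bp on the other side the 3 kinds of distal peak had 33.8%, 33.98% and 34.5%.

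**Figure D2:**
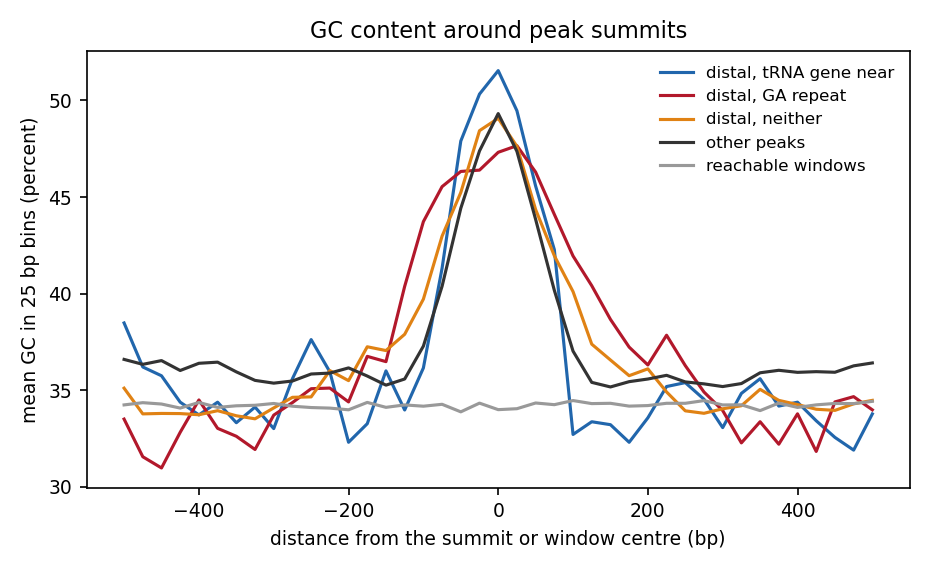
Mean GC content in 25 bp bins (vertical axis, percent) against distance from the summit or window centre (horizontal axis, bp), for distal peaks beside a tRNA gene, with a GA repeat and with neither, for other peaks and for reachable windows. All 4 peak curves rise at the summit, to between 47.3% and 51.5%, while the reachable windows stay near 34%.

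Genes for non-coding RNA were near 27.6% of distal summits (201), counted within 200 bp of the gene, against 20% of other summits and 20.9 percent of all. The replicates' lists gave 29.7% ± 2.94 (SD, n = 2). The classes differed widely when set against the share of reachable bases that lay as close. tRNA genes were near 10.9% of distal summits (79), against 6.74% of other summits, while 0.347% of reachable bases were near one. The other summits were mixed, from 2.12% within 500 bp of a 5′ end to 15.7% between convergent genes, above the distal share. Peaks between convergent genes were also above it for non-coding RNA genes of any class, with 35.1%. For snoRNA genes, whose RNAs guide modification of other RNAs, the shares were 1.79% of distal summits (13), 1.89% of other summits and 0.162% of reachable bases. Genes annotated only as ncRNA were near 19.5% of distal summits (142), 13.9% of others and 5.58% of reachable bases. A summit can count in more than 1 class. Of the 201 summits, 122 had a non-coding RNA gene near but no tRNA gene, so some of the 142 also lay beside a tRNA gene. Long intergenic RNA genes were near 2.06% of distal summits (15), 0.375% of others and 1.06% of reachable bases.

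For a pair of classes the distal share was below that of the reachable bases but above that of other peaks. Genes of piRNAs, the small RNAs that guard the germline against foreign sequence, were near 1.65% of distal summits (12), 0.882% of other summits and 6.67% of reachable bases. Pseudogenes were near 5.49% of distal summits (40), 1.09% of others and 11.1% of reachable bases. There were 3 distal peaks near a miRNA gene (0.412%), against 0.375% of other summits and 0.215% of reachable bases. Only 1 was near an snRNA gene (0.137%), against 1.33% of other summits and 0.0628% of reachable bases. Near an rRNA gene there were 0, against 0.0188% of other summits and 0.117% of reachable bases. Antisense RNA genes also had 0, against 0.206% of other summits and 0.0567% of reachable bases.

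Most tRNA genes within reach had a distal peak. Of 105 with their midpoint in the reachable genome 83 (79.0%) had a distal summit within 200 bp, 53 of 66 on X and 30 of 39 on the autosomes. The 79 peaks were closest to 78 genes, which RefSeq assigns to 20 kinds of tRNA, led by serine (8 genes), arginine (7) and proline (7). How many reachable genes each kind has was not counted, so this order does not show that any kind was favoured. Summits sat at the gene's 5′ end, with a median position of -3 bp and quartiles of -19 and 10 bp. Of the 79 peaks, 48 were on X.

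The highest tRNA-gene peak was on chromosome III, 74 bp upstream of Y66D12A.t1, a phenylalanine tRNA gene, with a pooled signal of 1292, 346 in replicate 1 and 932 in replicate 2. The next was 58 bp upstream of C53C7.t1, a serine tRNA gene on X, with 1288 in the pooled list, 783 in replicate 1 and 503 in replicate 2. The third was 63 bp upstream of F46G11.t2, a proline tRNA gene on X, with 954, 403 in replicate 1 and 550.1 in replicate 2. All 3 overlapped a thresholded peak of both replicates.

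Peaks also lay beside genes of other classes. A peak 70 bp upstream of the snoRNA gene T08B6.64 on IV had a signal of 1030.0, with 669 in replicate 1 and 357 in replicate 2. Near K07C10.2, a snoRNA gene on II, a peak had 1003, with 662 in replicate 1 and 342 in replicate 2, and its summit also lay in the long intergenic RNA gene K07C10.8. One 61 bp upstream of the annotated miRNA gene cel-mir-8196a on X had 712, with 472 in replicate 1 and 243 in replicate 2. The snRNA gene M163.13 on X held a summit of signal 206, with 114.5 in replicate 1 and 90.7 in replicate 2. A peak of signal 882 lay in linc-128 on V, with 356 in replicate 1 and 534 in replicate 2.

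Runs of alternating G and A were the other common feature. GAGAGAGA, on either strand, was in 16.2% of distal windows (118), against 9.77% of other peaks' windows and 1.47% of reachable windows. In the list of replicate 1 it was in 11.3% of distal windows against 7.58% of the others, and in that of replicate 2 in 18.2% against 11.4%. Without the peaks beside tRNA genes, of which 1 had a run, the distal share was 18.0% (117 of 649). The shorter GAGAGA, a form added after the first values were seen, was in 53.3% of distal windows, 43.0% of others and 9.76% of reachable windows, and it overlaps the longer form. The longest run per window had a median of 10 bases and reached 144, and its centre was a median of 37 bp from the summit. Runs of 20 bases or more were in 1.92% of distal windows (14), 0.769% of others and 0.0713% of reachable windows. By chromosome the share of distal windows with the repeat ran from 25.9% on I (29) to 7.06% on V (6).

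Textbook binding sites were less distinct. The B box form GTTCGANTC was in 34.2% of the distal windows beside tRNA genes (27 of 79) and 1.08% of the other distal windows. Together this was 4.67% of distal windows, against 3.70% of other peaks' windows and 0.450% of reachable windows. The looser GTTCNANNC, which includes it and was added later, was in 83.5% of the distal windows beside tRNA genes (66) and 8.32% of the other distal windows. Together this was 16.5% of distal windows, against 12.3% of other peaks' windows and 6.80% of reachable windows. The CG-rich CCCGCCC was in 2.47% of distal windows, 2.89% of others and 0.721% of reachable windows, and the E-box CACGTG in 4.12%, 5.25% and 2.56% of these. AT-rich words were scarcer at summits than in the reachable windows, as was sequence poor in GC. TTTTTTTT was in 13.3% of distal windows, 12.5% of others and 26.2% of reachable windows, TATAAA in 11.1%, 12.6% and 23.2%, and the GATA site TGATAA in 10.9%, 11.9% and 17.2%. The TCF site CTTTGAT, the class of site through which Wnt signalling acts, was in 2.61%, 2.35% and 3.79%. The piRNA upstream word CTGTTTCA was in 0.412%, 0.976% and 3.05%. The AP-1 word TGACTCA was in 0.962% of distal windows, 1.88% of others and 1.97% of reachable windows. The forkhead word TGTTTAC was in 2.75%, 3.25% and 2.77% of these, and the POU word ATTTGCAT in 1.37%, 1.43% and 1.72%. A match is a string of letters, not a site.

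**Figure D3:**
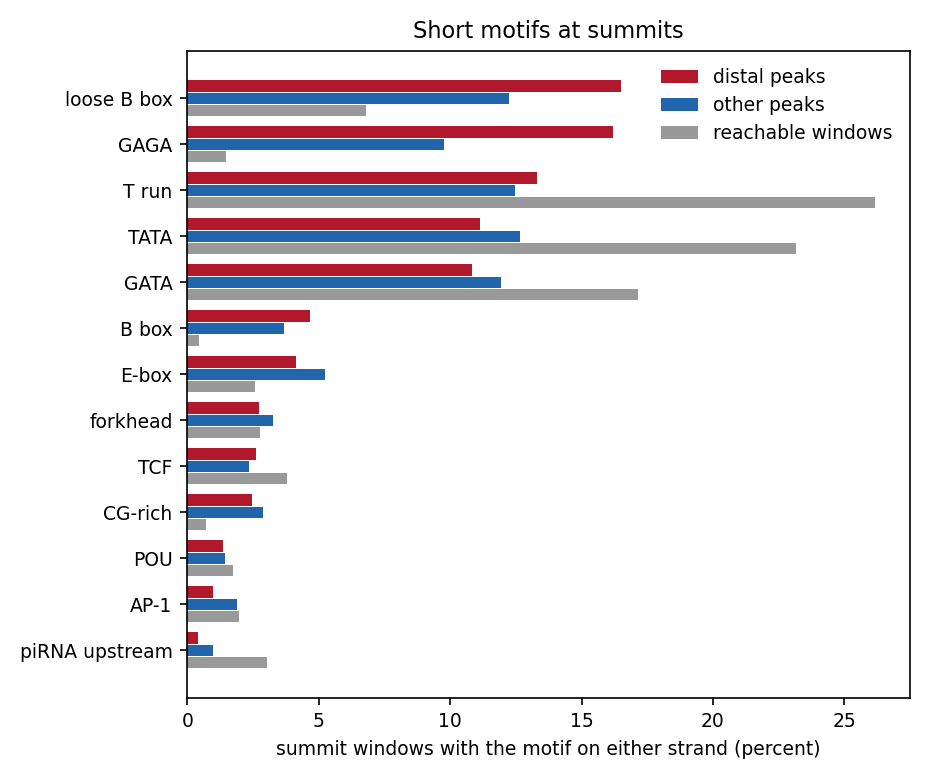
Share of 201 bp windows with each motif on either strand (horizontal axis, percent), for distal peaks, other peaks and reachable windows, with motifs ordered by their share in distal peaks and the shorter GAGAGA not plotted. Of those plotted, the loose B box (16.5%) and the 8-letter GAGA word (16.2%) lead among distal peaks, while the T run and TATA words lead among reachable windows.

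The replicates differed in which of these kinds they held. Beside tRNA genes 74.7% of distal peaks (59 of 79) overlapped a peak of replicate 1 and 91.1% (72) one of replicate 2. Among GA windows without a tRNA gene these shares were 36.8% (43 of 117) and 95.7% (112). For the 532 distal peaks with neither they were 50.9% (271) and 77.6% (413). Other peaks had the same order, with GA windows at 42.7% in replicate 1 and 90.9% in replicate 2 (506 peaks) and those with neither feature at 48.5% and 77.4% (4465 peaks). The replicates' thresholded lists differ in length, 3340 and 5333 peaks, and the part of list length in these shares was not tested.

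Seen from the other side, 26.3% of the 266 distal peaks found in replicate 2 alone had a GA repeat (70), against 13.0% of the 331 found in both (43) and 2.38% of the 42 found in replicate 1 alone (1). Peaks of unequal strength enter these groups. The median pooled signal was 128.8 for replicate 2 alone, 358 for both and 102 for replicate 1 alone. Within GA windows the signal ranks of the replicates had a rho of 0.751 (n = 99), beside tRNA genes 0.710 (n = 75) and in the rest 0.551 (n = 474), as descriptions.

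**Figure D4:**
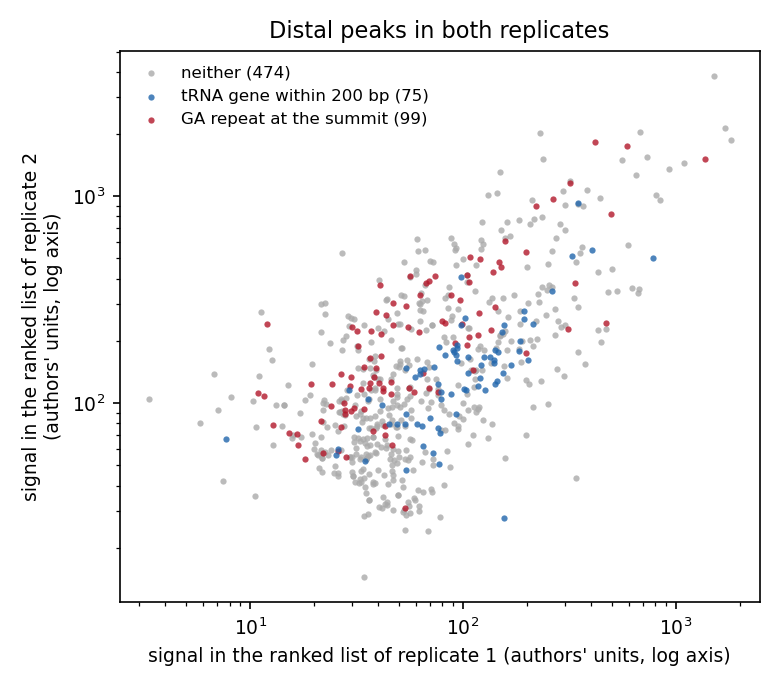
Signal of 648 distal peaks in the ranked list of replicate 1 (horizontal, log axis) and replicate 2 (vertical, log axis), in the authors' units, for peaks beside a tRNA gene, with a GA repeat and with neither. GA peaks (99) mostly lie above the tRNA-gene peaks (75) of like signal in replicate 1, and over all peaks with a candidate in the list the GA and tRNA-gene medians were 46.4 and 93.7 in replicate 1, and 144 and 140 in replicate 2.

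**Figure D5:**
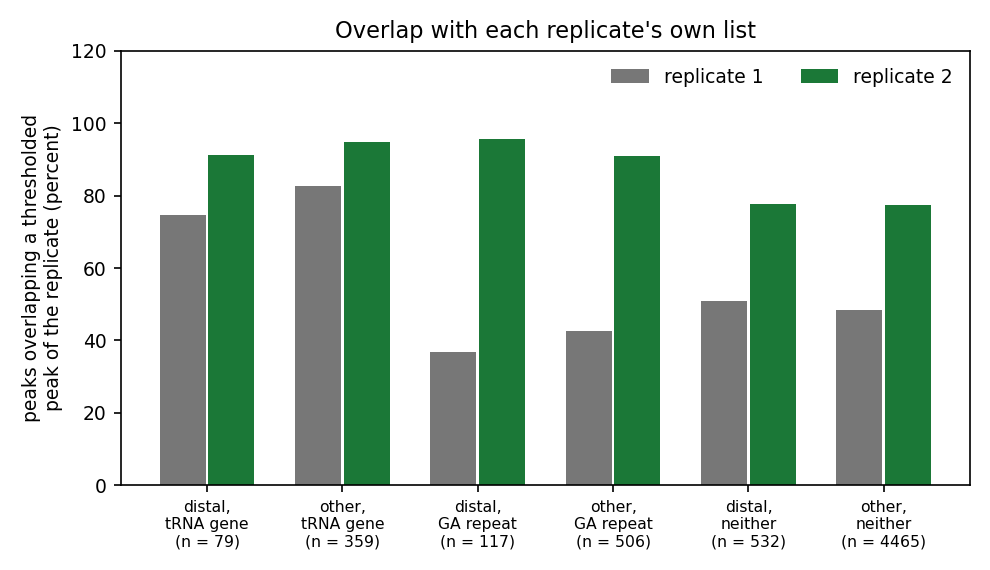
Share of peaks that overlap a thresholded peak of replicate 1 and of replicate 2 (vertical axis, percent), for distal and other peaks beside a tRNA gene, with a GA repeat and with neither. GA peaks show the widest gap between replicates, 36.8% and 95.7% among distal peaks.

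Much of this was shared with the peaks at 500 to 2000 bp from a 5′ end, the class most like the distal one by position. Distal windows and those of the nearer class had the same median GC, 45.3%. GA repeats were in 16.2% of distal windows and 14.5% of the nearer ones, and tRNA genes were near 10.9% of distal summits and 7.04% of the nearer. Median signals were 181 for distal peaks and 185 for the nearer. Both replicates overlapped 45.5% of distal peaks and 43.4% of the nearer.

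Sequence that occurs more than once was found in 17.3% of distal windows (126), counted as another stretch of at least 100 bp with at least 90% identity, against 11.97% of other peaks' windows and 20.7% of 6312 reachable windows. Beside tRNA genes the share was 31.6%, at GA windows 5.13% and at the rest 17.9%. Both replicates overlapped 48.4% of distal peaks with another copy (61 of 126) and 44.9% of those with none. Their median signal percentile was 44.8, against 55.7 for those with none. How reads that match several places were handled is not stated in the labels or headers.

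The genes that flanked distal peaks were 1035 of the 6182 protein-coding genes next to reachable sequence (16.7%). A distal peak does not say which neighbour, if either, it serves. The gene lists were made from symbols, so they can miss members of a family and hold genes of other function. Ligands and receptors of the Wnt, Notch, EGF and TGF-beta pathways had 8 of 18 such genes beside a distal peak (44.4%), with 99.1 distal peaks per reachable Mb next to them against 53.2 over all. They were the Wnt receptor genes mig-1, cfz-2, cam-1 and lin-18, the Notch ligand genes apx-1 and arg-1, and the TGF-beta receptor genes daf-1 and daf-4. The pooled list had 9 peaks there, and the replicates' own lists gave 66.1 per Mb in replicate 1 and 110.1 in replicate 2. The strongest of the 9 lay 3678 bp from a 5′ end between basl-1 and daf-4, with a signal of 841, 151 in replicate 1 and 690.3 in replicate 2. The next lay between arg-1 and C14E2.11, with 640 in the pooled list, 346 in replicate 1 and 292 in replicate 2.

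Nuclear receptor genes had 23 of 108 beside a distal peak (21.3%), at 59.5 peaks per Mb. Their strongest after the nhr-88 peak shown above lay between nhr-20 and F43C1.7, with 1361 in the pooled list, 294 in replicate 1 and 1062 in replicate 2. Genes with symbols that start with col, dpy, rol, sqt or bli, many of which encode cuticle collagens, had 11 of 46 (23.9%), at 77.3 per Mb. The 11 include genes that encode no collagen, such as bli-4, a proprotein convertase gene, and dpy-23, an adaptin gene. Genes listed as bHLH factors, mainly those with hlh symbols, had 5 of 14, at 49.97 per Mb. Those listed as homeobox genes, mainly with ceh and lim symbols, had 6 of 53 (11.3%), at 32.9 per Mb. A list of channel and neurotransmitter receptor symbols (acr, lgc, glr, gar, ser, twk, kvs and a few more) had 7 of 75 (9.33%), at 36.4 per Mb. For it the replicates' own lists gave 31.2 per Mb in replicate 1 and 26.0 in replicate 2. All distal peaks, binned by distance, ran from 25 to 31.5 per Mb in replicate 1 and from 32.4 to 56.8 in replicate 2. A density below that range was thus seen in replicate 2 alone. The gene counts are of the listed symbols, not of whole families. Further members such as sbp-1 (bHLH), psa-3 (homeobox) and tax-4 (a channel gene), picked after their values were seen, also flanked distal peaks. The lists with low shares were chemoreceptors, with 21 of 392 (5.36%) and 31.4 per Mb, neuropeptides, with 4 of 71 (5.63%) and 14.9 per Mb, and C-type lectins, with 2 of 46 (4.35%) and 15.8 per Mb.

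Cytosolic ribosomal protein genes had 3 of 8 (37.5%, against 16.7% of all genes next to reachable sequence), rpl-21, rpl-31 and rps-28, with 6 peaks. Replicate 1 overlapped 1 of the 6 and replicate 2 all 6, against 51.2% and 82.0% of all distal peaks. Of the 6, 4 lay in 1 gap, between gei-8 and rpl-21, among them the 1 overlapped in replicate 1. The replicates' own lists gave 19.3 peaks per reachable Mb beside these genes in replicate 1 and 174 in replicate 2. Genes of the F-box and MATH/BTB families had 12 of 105 (11.4%), T-box genes 2 of 10, forkhead genes 1 of 10 and histone genes 0 of 3. Of the 6 SOX and HMG genes 1 had a distal peak beside it, hmg-1.1, a relative of hmg-1.2. The gap between jmjd-2 and hmg-1.1 on II held 2, with pooled signals of 182 and 103. In the ranked lists their signals were 48.9 and 47.0 in replicate 1 and 119 and 60.0 in replicate 2. The stronger overlapped a thresholded peak of both replicates, and the weaker overlapped one of neither.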

How the data were processed

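ChIP-seq peak lists of 2 biological replicates were analysed. The positions are on ce11, per the labels, and all deposited peaks fit the WBcel235 chromosome lengths. Software for alignment and peak calling is not given in the sources used here. The depth is also unknown, so no interval that needs depth is given. The deposited signal is the authors' own value per peak on an unstated scale, used only within 1 list. The deposited score, capped at 1000, is at least 830 in the authors' thresholded list. A further deposited ranked list (1 in all) was not used, since its per-replicate columns name no sample.

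Summits were placed by Ensembl release 115, and windows of 201 bp were read from RefSeq's genome. Ranked lists were matched to peaks by overlap of at least 1 bp, taking the nearest summit. Copies were sought with blastn 2.17.0 in 1 in 10 reachable windows and all peaks. Scripts used Python 3.11.15, NumPy 2.4.6, pandas 2.3.3, SciPy 1.17.1 and matplotlib 3.10.9, and were tested on simulated positions. Values are counts, shares and medians with no test, since there is 1 group. Regions are not replicates.

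The members, gene lists and alternatives were chosen with earlier results of these data known. Peaks named are the 20 of highest signal that overlap both replicates, the 5 most distant, up to 3 of highest signal per non-coding class and gene list, 3 on each side of the limit and the gaps with most peaks (4 are given, since the third place was tied). Not all are described. Alternatives changed the distance limit, list, overlap, window and merging of summits.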

Additional observations from a re-analysis of the deposited data

Results flagged for a closer look

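The ranked list over both replicates held 63 candidates whose score passed the lowest score of the thresholded list (830) but which are not in that list, and 33 of them were distal by the same rule. They are signal outside the peaks described above. Of these 33, 32 (97.0%) had another copy of their summit window elsewhere in the genome, against 17.3% of the 728 distal peaks. The strongest, on X (15810945 to 15811274) between Y7A5A.7 and Y7A5A.8, had a signal of 992, and 7 lay either between lgc-50 and alh-12 on III or, on V, between ZK218.11 and F40D4.17. Whether the copies account for their absence from the list was not tested.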

How the results depend on the processing

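Of 76 values recomputed under the alternatives, 49 stayed within the bound set for them and 27 moved. The bound was a factor of 1.5 for the number of peaks, the spread between replicates (1 SD) where both replicates gave a value, and the 95% Wilson interval for the other shares, which covers counting error only. The SD came from the same 2 replicate lists that served as alternatives. For median GC it was 0.352, less than 1 base of a 201 bp window. The counts of values that stayed or moved therefore do not measure robustness. The number of distal peaks was 1260 with a limit of 1000 bp, 439 with 3000 bp and 389 among peaks above the 50th signal percentile, all smaller or larger sets by construction, and 399 to 665 in the replicates' own lists. The share overlapping the conservative list was 94.1% above the 50th percentile. The share overlapping both replicates was 65.4% in the conservative list and 76.3% above that percentile. The share near a non-coding RNA gene was 33.0% in the conservative list, 17.1% for summits outside such genes, 31.6% above the 50th percentile, 24.2% within 100 bp, 34.3% within 500 bp and 27.7% to 31.8% in the replicates' lists. It was 13.2% for tRNA, snRNA, snoRNA, miRNA and rRNA genes alone, an alternative chosen after seeing the data. Median GC was 45.8% in the conservative list, 46.3% above the 50th percentile, 47.5% in windows of 50 bp and 40.6% of 200 bp either side, and 45.3% to 45.8% in the replicates' lists. The X share was 16.2% without peaks beside tRNA genes, also chosen later, and 19.2% to 25.6% in the replicates' lists. The share at chromosome ends was 72.9% with 3000 bp, 71.9% in the conservative list, 72.6% outside non-coding genes, 72.0% above the 50th percentile and 70.8% to 72.4% in the replicates' lists. The signal percentile was 49.9 to 55.9 there. Merging summits within 150 bp removed 0 peaks, so the values under it could not move and are counted among the 49. Apart from set size, the cause was not tested. No paired analysis was possible because there was 1 group. Depth is unknown, and a missing peak in 1 replicate does not show that nothing was bound there.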
